A study of Mus musculus with 20 samples.

Results

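Lymphocyte marker genes were examined in the mouse prostate after castration and testosterone replacement. They are Ltb, the B cell genes Ighm, Cd79a, Cd79b and Ms4a1, and the T cell genes Cd3d, Cd3e and Cd3g. All probe sets whose only gene symbol in the array's annotation was one of these names were taken, which gave 25 of 12422 probe sets and 8 of 8251 genes. Ighm had 16 of the 25 probe sets, Ms4a1 and Cd3d had 2 each, and the other 5 genes had 1 each.

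Whole prostates of C57/B6 mice aged 10-12 weeks were hybridised to Affymetrix MG-U74A arrays, 1 mouse to an array and 5 mice to a group. The groups were mice castrated 3 days earlier, mice castrated 14 days earlier, mice castrated for 14 days and then given a 15 mg testosterone pellet for 3 days, and sham-treated mice. The testosterone mice had all been castrated, so that group is set against castrated mice at 14 days as well as against sham. No group was castrated for as long without a pellet. In the comparison with 14 days, testosterone and the further 3 days cannot be told apart. The arrays read RNA of the whole organ, so fewer cells of a type and less RNA per cell cannot be told apart.

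B cells carry a receptor made of an immunoglobulin and a pair of signalling chains, and T cells carry a receptor made of antigen-binding chains held in the CD3 complex. Plasma cells, the antibody-secreting descendants of B cells, make large amounts of immunoglobulin RNA and lose many B cell surface proteins. The normal prostate holds lymphocytes as a minor population beside epithelium, smooth muscle and fibroblasts.

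The values are MAS5 signals, linear intensities in arbitrary units that do not compare one probe set with another. Tests used log2 (signal + 12.7), where 12.7 is the 10th percentile of all signals, so changes of low probe sets are understated. Probe sets above 190.8, the median of all signals, on at least 5 of the 20 arrays were tested, which left 6913. A probe set was called when its limma adjusted p was under 0.05, with Benjamini-Hochberg adjustment over all probe sets of the fit. Of the 25 lymphocyte probe sets 5 passed this filter, for Ltb, Ighm, Cd79a and Ms4a1, and 17 were not above the median signal on any array. The 4 probe sets of the CD3 genes reached no more than 87.5 on any of the 20 arrays, so the T cell markers were near the low end of the scale in every group. Ltb and 1 of the Ighm probe sets passed only through their 5 castrated 14-day arrays, and such probe sets had to differ between groups. The 20 probe sets below the filter, all of those of Cd79b, Cd3d, Cd3e and Cd3g among them, were fitted without a filter, over 12422 probe sets. On 4 arrays the 3′ control probe set of Gapdh exceeded the 5′ one by over 1 on the log2 scale, a measure of RNA quality: by 2.05 and 1.82 on castrated 14-day replicates 4 and 5, and by 4.54 and 3.93 on testosterone replicates 2 and 5, against -0.53 to -0.08 on the other arrays. The part of RNA quality in the differences below was not tested, beyond fits without those 4 arrays.

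At 14 days after castration Ltb and the 2 tested of the 16 Ighm probe sets were higher than in sham prostates. Ms4a1 was lower by 1 of its 2 probe sets. After 3 days of testosterone Ltb and the 2 tested Ighm probe sets were lower again than at 14 days. The CD3 genes did not move as 1 group, and neither did the B cell genes.

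Promoter sequence of 4 genes is shown because these genes differ in what they did: Ltb was higher at 14 days, Cd79a was not, and Cd3d and Cd3g moved alike from 14 days to testosterone. The 250 bases before the start of each gene come from RefSeq (GRCm38.p6), read 5′ to 3′ on the gene's strand. They lie at chr17:35194257-35194506 (plus strand) for Ltb, chr7:24897247-24897496 (plus strand) for Cd79a, chr9:44981536-44981785 (plus strand) for Cd3d and chr9:44980432-44980681 (minus strand) for Cd3g. The 4 were chosen after the values were seen, and Cd3e, which moved otherwise than Cd3d and Cd3g, was left out. Capitals mark matches to 6 motifs searched on both strands.
Ltb: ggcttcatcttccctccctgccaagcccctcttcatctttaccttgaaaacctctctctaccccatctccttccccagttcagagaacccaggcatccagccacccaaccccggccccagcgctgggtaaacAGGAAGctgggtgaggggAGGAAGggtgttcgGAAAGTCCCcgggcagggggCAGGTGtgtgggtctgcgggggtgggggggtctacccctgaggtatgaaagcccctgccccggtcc
Cd79a: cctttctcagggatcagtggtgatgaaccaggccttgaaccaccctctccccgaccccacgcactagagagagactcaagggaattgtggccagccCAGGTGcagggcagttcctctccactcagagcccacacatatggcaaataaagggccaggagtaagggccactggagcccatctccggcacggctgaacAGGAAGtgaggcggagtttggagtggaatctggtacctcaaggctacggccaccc
Cd3d: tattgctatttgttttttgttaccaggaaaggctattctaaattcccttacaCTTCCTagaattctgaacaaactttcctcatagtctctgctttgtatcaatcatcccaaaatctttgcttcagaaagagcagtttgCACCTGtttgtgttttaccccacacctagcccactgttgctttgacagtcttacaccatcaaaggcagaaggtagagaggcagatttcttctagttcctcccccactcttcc
Cd3g: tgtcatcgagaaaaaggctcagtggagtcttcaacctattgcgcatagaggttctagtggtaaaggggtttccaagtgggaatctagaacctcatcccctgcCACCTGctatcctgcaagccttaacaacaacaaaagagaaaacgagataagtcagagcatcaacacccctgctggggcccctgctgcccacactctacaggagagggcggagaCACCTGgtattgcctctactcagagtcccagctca
The NF-kappa-B core GGGACTTTC was found in the Ltb sequence on the minus strand, from -86 to -78, and in 0.289% of all 32851 promoter windows of that length. The ETS core AGGAAG stood at -118 and -100 in Ltb and at -55 in Cd79a, and on the minus strand from -198 in Cd3d, and 29.5% of all windows held it. The E-box CACCTG was present in all 4 but not in the Cd3e sequence, which is not printed, and 17.2% of all windows held it. It lay on the minus strand from -66 in Ltb and from -154 in Cd79a, and on the plus strand from -112 in Cd3d and from -148 and -35 in Cd3g. The octamer ATGCAAAT, the Runx core TGTGGT and the androgen receptor half-site AGAACA had no match in these 4 windows, against 1.6%, 14% and 16.1% of all windows. Of the 8 genes 5 had an entry in the promoter table, the fifth being Cd3e, with the ETS core at -224 and, on the minus strand, from -17. Ighm, Cd79b and Ms4a1 are named only. Cd3g, Cd3d and Cd3e are direct neighbours on chromosome 9, and the other 5 genes lie on chromosomes 17, 12, 7, 11 and 19.

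Ltb encodes lymphotoxin beta, a membrane cytokine of lymphocytes that engages the lymphotoxin beta receptor on stromal cells. Its probe set 102940_at read 96.6, 81.7, 39.3, 151.2 and 93.8 in sham prostates, 174.0, 99.0, 161.3, 168.3 and 100.7 at 3 days, 367.0, 344.9, 268.6, 342.6 and 310.7 at 14 days, and 104.5, 43.9, 64.9, 67.5 and 108.8 after testosterone. All 5 arrays at 14 days were higher than the other 15, and no single array carried the group. The mean was 327 ± 38.2 at 14 days after castration and 92.5 ± 40 in sham prostates (SD, n = 5 each). Ltb was 3.42-fold higher at 14 days than in sham (log2 change 1.77 ± 0.25 SE, limma adjusted p = 1.02e-05). It was 2.26-fold higher at 14 days than at 3 days (log2 change 1.18 ± 0.25 SE, limma adjusted p = 0.00128). After testosterone it was 3.88-fold lower than at 14 days (log2 change -1.95 ± 0.25 SE, limma adjusted p = 4.24e-06). Because Ltb passed the filter only through its 14-day arrays, the same changes were tested without a filter, where the limma adjusted p was 2.64e-05, 0.00269 and 1.18e-05. With 1 array left out the 14-day change against sham was 1.54 to 1.96. The testosterone group, at 77.9 ± 27.8, did not differ from sham by the test (log2 change -0.18 ± 0.25 SE, limma adjusted p = 0.566). At 3 days Ltb averaged 141 ± 37.5 (log2 change over sham 0.60 ± 0.25 SE, limma adjusted p = 0.128), a difference that was called without sham replicate 4 and with array weights. From highest to lowest the order was castrated 14 days, castrated 3 days, sham and testosterone, in which the last 3 groups overlapped.

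Ighm encodes the constant region of the immunoglobulin mu heavy chain, which forms membrane IgM on B cells and secreted IgM in plasma cells. Its probe set with the highest mean, 93583_s_at, was above the median signal on all 20 arrays. It read 414.1, 399.4, 440.3, 327.8 and 394.1 in sham, 788.1, 689.4, 495.8, 1089.9 and 538.4 at 3 days, 5272.9, 1408.1, 2228.0, 1182.7 and 1851.4 at 14 days, and 802.2, 613.9, 1248.7, 544.3 and 491.0 after testosterone. All 15 arrays of castrated mice were above all 5 sham arrays. Castrated 14-day replicate 1 stood apart, with 2.37 times the signal of the next array and 44.2% of its group's sum.

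The mean of 93583_s_at was 2389 ± 1662 at 14 days, or 1668 without replicate 1, and 395 ± 41.7 in sham (SD, n = 5 each). This probe set of Ighm was 5.08-fold higher at 14 days than in sham (log2 change 2.35 ± 0.32 SE, limma adjusted p = 6.2e-06). It was 2.93-fold higher at 14 days than at 3 days (log2 change 1.55 ± 0.32 SE, limma adjusted p = 0.000912). Without replicate 1 these changes were 2.01 and 1.21 on the log2 scale (limma adjusted p = 4.8e-06 and 0.00146), so both calls stood without the highest array. After testosterone Ighm was 2.91-fold lower than at 14 days (log2 change -1.54 ± 0.32 SE, limma adjusted p = 0.000627). The groups overlapped there, since testosterone replicate 3 at 1248.7 exceeded castrated 14-day replicate 4 at 1182.7. Testosterone prostates averaged 740 ± 308 and were still above sham on every array (log2 change 0.81 ± 0.32 SE, limma adjusted p = 0.0411). That call was the least firm: it was kept in 13 of 20 fits that left out 1 array, lost without testosterone replicate 1 or 3 or any single sham array, with the adjusted p reaching 0.122, and lost without a filter and with array weights. At 3 days the mean was 720 ± 238, and although all 5 arrays exceeded all sham arrays the change of 0.80 ± 0.32 SE was not called (limma adjusted p = 0.108, or 0.0358 without castrated 14-day replicate 1).

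**Figure D1:**
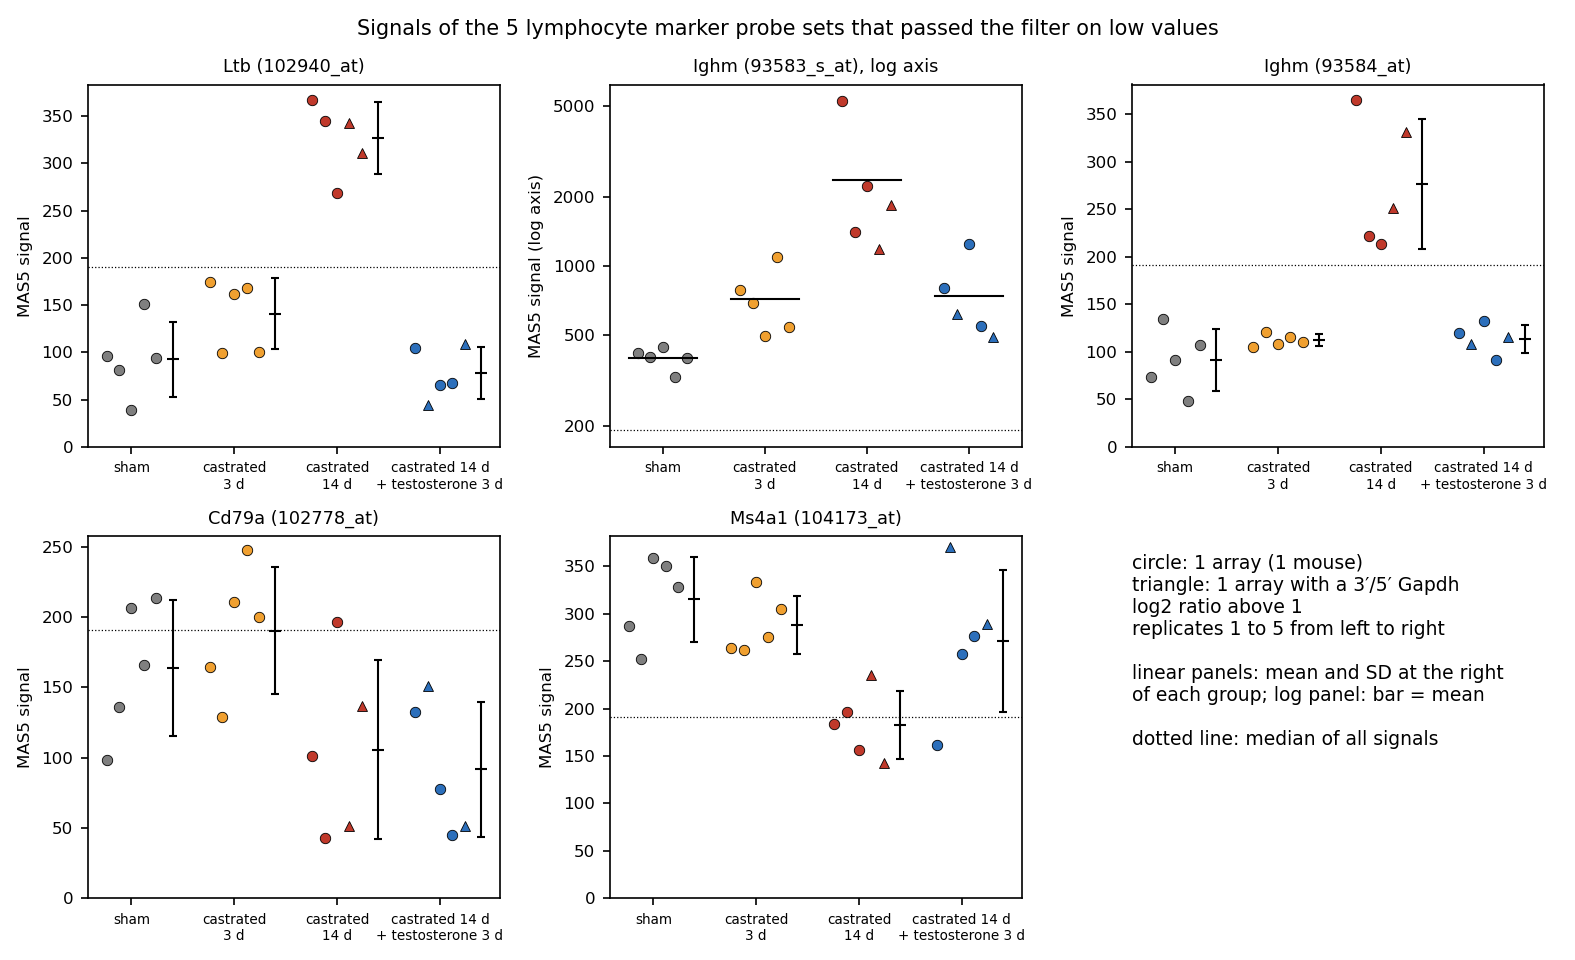
MAS5 signals (arbitrary units, linear except the log axis for Ighm 93583_s_at) of the 5 lymphocyte probe sets that passed the filter, 1 point per mouse in groups of 5, with mean and SD (mean only on the log axis), and triangles for the 4 arrays with a high Gapdh 3′/5′ ratio. Ltb and both Ighm probe sets are highest in the castrated 14-day group, where 1 array reaches 5272.9 for Ighm, while Ms4a1 is lowest there.

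The other tested Ighm probe set, 93584_at, passed the filter only through its 14-day arrays. It read 73.9, 134.5, 91.8, 48.1 and 107.6 in sham, 104.8, 120.7, 108.5, 115.6 and 110.7 at 3 days, 365.3, 221.4, 212.9, 251.6 and 331.3 at 14 days, and 119.5, 107.9, 132.7, 91.5 and 115.4 after testosterone. All 5 arrays at 14 days lay above the other 15, and replicate 1 was again the highest, with 26.4% of its group's sum. This Ighm probe set was 2.84-fold higher at 14 days than in sham (log2 change 1.51 ± 0.19 SE, limma adjusted p = 1.92e-06, or 5.71e-06 without a filter). It was 2.26-fold lower after testosterone than at 14 days (log2 change -1.17 ± 0.19 SE, limma adjusted p = 4.33e-05, or 0.000114 without a filter). The testosterone group averaged 113 ± 15.2 against 91.2 ± 32.8 in sham, a log2 change of 0.33 ± 0.19 SE (limma adjusted p = 0.14), which was called when arrays were centred on their medians (0.50, limma adjusted p = 0.0317), with quantile normalization (0.59, limma adjusted p = 0.00844) and without sham replicate 2.

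The remaining 14 Ighm probe sets were below the filter, and 12 of the 16 were not above the median signal on any array. Of the 14, 5 have the suffix _f_at, which Affymetrix gives to probe sets shared by a gene family. On all 5 of these castrated 14-day replicate 1 was the highest of the 20 arrays, and on 9 of the 14 it was the highest of its group. Among these 100362_f_at read 333.2, 124.9, 304.8, 30.9 and 101.5 at 14 days, against 36.9 to 59.2 in sham. Its 14-day change over sham of 1.44 ± 0.53 SE passed the test without a filter (limma adjusted p = 0.0369) but in only 13 of 20 fits that left out 1 array. A single array also set 99420_at, with 377.6 on castrated 14-day replicate 3 and 27.2 to 70.9 on the other 4. In the opposite direction 99885_at was lower at 14 days than in sham, at -0.81 ± 0.31 SE (limma adjusted p = 0.0468, kept in 6 of 20 such fits). Its means there were only 10.3 and 28.2. Also lower were 101745_f_at after testosterone than at 14 days (-1.05 ± 0.38 SE, limma adjusted p = 0.0446, 8 of 20), and 100377_f_at (-1.09 ± 0.42 SE, limma adjusted p = 0.0441, 10 of 20) and 101870_at (-0.79 ± 0.30 SE, limma adjusted p = 0.0448, 4 of 20) after testosterone than in sham. These were dim too, with means of 14.4 and 49.8 for 101745_f_at, 19.9 and 54 for 100377_f_at, and 7.34 and 29 for 101870_at. A further 3 probe sets list Ighm together with other immunoglobulin genes and were left out by the rule. None of these 3 was higher by the test in any comparison, and 99421_at was lower after testosterone than in sham (-0.47 ± 0.10 SE, limma adjusted p = 0.00144) and at 14 days than in sham (-0.26 ± 0.10 SE, limma adjusted p = 0.0474).

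**Figure D2:**
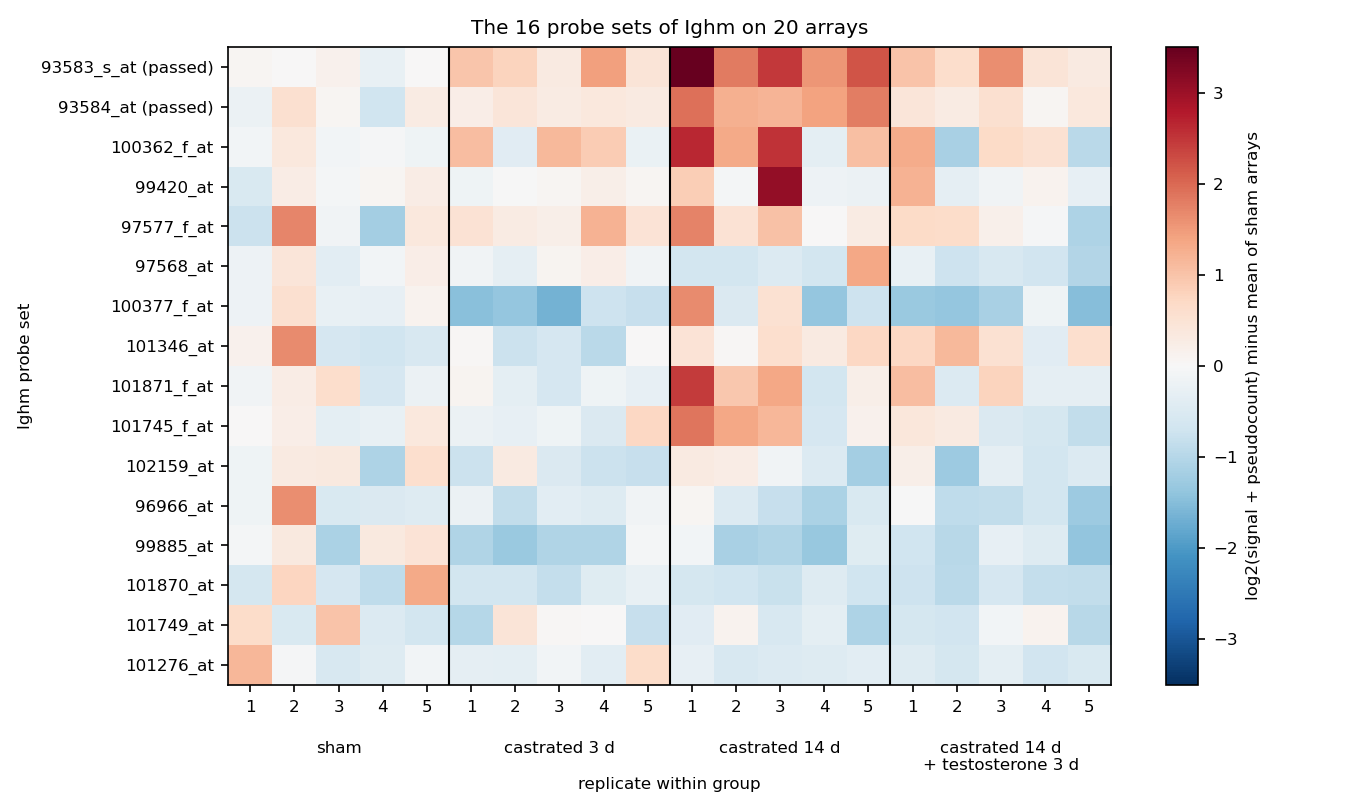
Log2 (signal + 12.7) of the 16 Ighm probe sets (rows) on the 20 arrays (columns, by group and replicate), minus the mean of the 5 sham arrays, as a colour scale, with the darkest red at its upper end. Castrated 14-day replicate 1 is the darkest column of its group in the 2 tested probe sets and in all 5 with the suffix _f_at, while the rows at the bottom are pale throughout.

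Genes that varied like Ighm were looked for among 5367 other genes, by Pearson's r over the 20 arrays, which share preparation and scaling. The most alike in level to 93583_s_at were Igkv6-23 (r = 0.96) and Igkv4-70 (r = 0.92), variable segments of the immunoglobulin kappa light chain, and Plbd1, a phospholipase B-like gene (r = 0.91). In deviations from the group means, which take out the treatment, the most alike was Jchain (r = 0.91), the chain that joins secreted IgM and IgA molecules, before Igkv6-23 (r = 0.89) and Igkv4-70 (r = 0.80). Igkv6-23 read 6719.7, 934.1, 2356.3, 917.5 and 2919.1 at 14 days, against 98.0 to 334.7 in sham. Jchain read 1211.2, 288.1, 706.6, 260.1 and 409.0 at 14 days, against 106.4 to 207.9 in sham. All of these were highest on castrated 14-day replicate 1, as Ighm was, and lowest on replicates 2 and 4 of that group. The 14-day changes over sham were 3.26 ± 0.54 SE for Igkv6-23 (limma adjusted p = 5.65e-05), 2.39 ± 0.41 SE for Igkv4-70 (limma adjusted p = 7.55e-05) and 1.55 ± 0.34 SE for Jchain (limma adjusted p = 0.000916). The probe set 93584_at was more like Csf1, Plbd1 and Lyl1 in level (r = 0.93 each), and like Sox3 (r = 0.81), Lyz2 (r = 0.81) and Cdkn2aipnl (r = 0.76) in deviations. Between the 2 Ighm probe sets r was 0.87 in level and 0.45 in deviations. Ltb and Ighm 93583_s_at had r = 0.69 in level and -0.02 in deviations. Ltb itself was most like Cbx2 (r = 0.92), Ablim1 (r = 0.90) and Cdc42ep4 (r = 0.89) in level, and like Cbx2 (r = 0.79), Adipor2 (r = 0.76) and Limch1 (r = 0.75) in deviations.

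**Figure D3:**
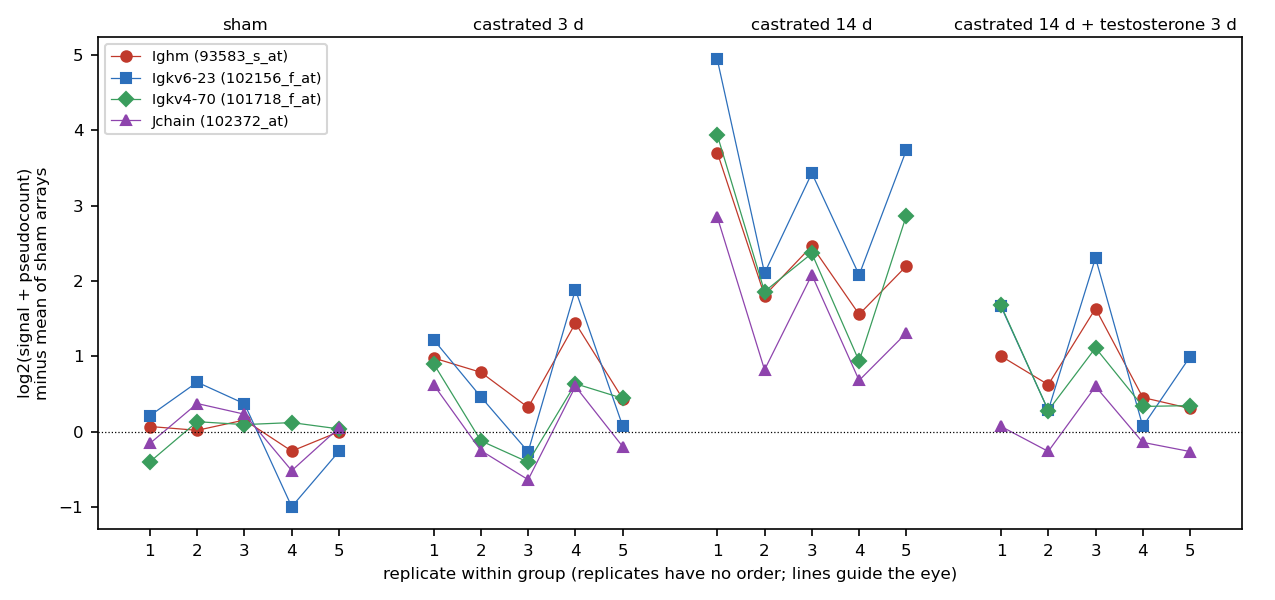
Log2 (signal + 12.7) of Ighm 93583_s_at, Igkv6-23, Igkv4-70 and Jchain on each of the 20 arrays, minus each gene's mean over the 5 sham arrays. The 4 genes share their ups and downs within the castrated 14-day group, with replicate 1 the highest for each.

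Cd79a and Cd79b encode the signalling chains of the B cell receptor. Cd79a (102778_at) read 98.5, 135.7, 206.4, 166.1 and 213.5 in sham, 164.7, 129.0, 210.3, 247.3 and 200.2 at 3 days, 101.5, 42.7, 196.7, 51.2 and 136.4 at 14 days, and 132.4, 151.0, 77.7, 45.3 and 51.7 after testosterone. Only 6 of its 20 values were above the median signal, and the 4 groups overlapped. At 14 days Cd79a averaged 106 ± 63.6 against 164 ± 48.3 in sham, which was not called (log2 change -0.71 ± 0.35 SE, limma adjusted p = 0.0931, or 0.0256 with array weights). It fell at 14 days relative to 3 days (log2 change -0.92 ± 0.35 SE, limma adjusted p = 0.0396), and was lower after testosterone than in sham (log2 change -0.84 ± 0.35 SE, limma adjusted p = 0.0483). The first of these calls was kept in 13 of 20 fits that left out 1 array and was lost without a filter (limma adjusted p = 0.0624) and with the 4 high-Gapdh-ratio arrays left out (limma adjusted p = 0.0836). The other was kept in 7 of 20, and in 3 of the 8 other settings. Between testosterone and 14 days the change was -0.13 ± 0.35 SE (limma adjusted p = 0.782). Its nearest genes in level were P2rx7 (r = 0.82), Vps4a (r = 0.80) and Slc6a4 (r = 0.80).

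Cd79b (161012_at) stayed below the median signal on all 20 arrays, at 56.7, 132.4, 81.9, 73.0 and 103.8 in sham, 72.8, 89.4, 71.5, 92.9 and 60.4 at 3 days, 128.5, 88.8, 82.2, 77.1 and 79.5 at 14 days, and 20.4, 37.2, 33.5, 39.5 and 55.4 after testosterone. The testosterone arrays were the 5 lowest of the 20. Without a filter Cd79b was 2.11-fold lower after testosterone than at 14 days (log2 change -1.08 ± 0.20 SE, limma adjusted p = 0.000432). It was 2.04-fold lower after testosterone than in sham (log2 change -1.03 ± 0.20 SE, limma adjusted p = 0.000596). Both calls were kept in all 20 fits that left out 1 array, and under both other scalings and pseudocounts. Castration gave no call: the 14-day mean was 91.2 ± 21.3 against 89.6 ± 29.4 in sham (log2 change 0.05 ± 0.20 SE, limma adjusted p = 0.863).

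Ms4a1 encodes CD20, a membrane protein of B cells that plasma cells lack, and its 2 probe sets differed in pattern. The one that passed the filter, 104173_at, read 286.6, 252.1, 358.9, 350.1 and 327.7 in sham, 263.5, 262.0, 332.8, 275.5 and 304.6 at 3 days, 183.3, 196.7, 156.3, 234.8 and 142.4 at 14 days, and 162.0, 370.4, 257.4, 276.6 and 289.5 after testosterone. The 14-day arrays lay below all sham and all 3-day arrays. This probe set of Ms4a1 was 1.69-fold lower at 14 days than in sham (log2 change -0.75 ± 0.17 SE, limma adjusted p = 0.000925). It was 1.55-fold lower at 14 days than at 3 days (log2 change -0.63 ± 0.17 SE, limma adjusted p = 0.00571). After testosterone it was 1.43-fold higher than at 14 days (log2 change 0.51 ± 0.17 SE, limma adjusted p = 0.0172), although the groups overlapped. The first 2 calls were kept in all 20 fits that left out 1 array. The last was lost without castrated 14-day replicate 5, without testosterone replicate 2, with only the compared groups (0.51, limma adjusted p = 0.0613), and with the 4 high-Gapdh-ratio arrays left out (0.33, limma adjusted p = 0.158). Without those 4 arrays Ms4a1 was also lower after testosterone than in sham (-0.44, limma adjusted p = 0.0312), against -0.24 ± 0.17 SE with them (limma adjusted p = 0.235). Its nearest genes in level were Tpd52l1 (r = 0.85), Degs2 (r = 0.85) and Gorasp2 (r = 0.84).

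The Ms4a1 probe set below the filter, 99446_at, was highest after testosterone. It read 88.6, 22.0, 24.9, 37.4 and 25.8 in sham, 39.9, 88.9, 95.5, 91.5 and 43.8 at 3 days, 120.4, 56.9, 40.3, 66.1 and 55.2 at 14 days, and 110.1, 188.5, 152.6, 192.3 and 187.7 after testosterone. All 5 testosterone arrays exceeded all sham arrays, and 1 array at 14 days reached into their range. Without a filter it was 3.66-fold higher after testosterone than in sham (log2 change 1.87 ± 0.30 SE, limma adjusted p = 9.36e-05, and 1.74 with limma adjusted p = 0.0036 with the 4 high-Gapdh-ratio arrays left out). It was 2.3-fold higher than at 14 days (log2 change 1.20 ± 0.30 SE, limma adjusted p = 0.00502), a call that was lost without those 4 arrays (1.03, limma adjusted p = 0.105). At 14 days the change over sham of 0.67 ± 0.30 SE had the sign opposite to that of 104173_at and was not called (limma adjusted p = 0.0803).

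The CD3 genes encode the invariant delta, epsilon and gamma chains of the T cell receptor complex. Cd3d (92683_at) read 39.9, 38.7, 6.1, 24.1 and 48.6 in sham, 31.3, 28.4, 20.7, 34.4 and 26.5 at 3 days, 55.3, 49.6, 48.3, 56.0 and 87.5 at 14 days, and 8.5, 4.0, 19.9, 29.1 and 27.0 after testosterone. The 14-day arrays were above all 3-day and all testosterone arrays, but not above all sham arrays. Without a filter Cd3d was 2.48-fold lower after testosterone than at 14 days (log2 change -1.31 ± 0.29 SE, limma adjusted p = 0.00178, and -1.05 with limma adjusted p = 0.0418 with the 4 high-Gapdh-ratio arrays left out). At 14 days it was 1.73-fold higher than in sham (log2 change 0.79 ± 0.29 SE, limma adjusted p = 0.0346), kept in 15 of 20 fits that left out 1 array and lost with the 4 high-Gapdh-ratio arrays left out (0.64, limma adjusted p = 0.126) and at a pseudocount of 1 (limma adjusted p = 0.0792). Against 3 days the 14-day change was 0.80 ± 0.29 SE (limma adjusted p = 0.049), kept in 6 of 20 such fits. The other Cd3d probe set, 161863_r_at, read 0.1 to 10.8 on the 20 arrays, at the bottom of the scale.

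Cd3g (100001_at) read 12.2, 53.3, 12.8, 67.5 and 46.1 in sham, 29.4, 13.9, 16.2, 7.4 and 15.3 at 3 days, 57.4, 35.4, 43.5, 83.1 and 81.9 at 14 days, and 27.7, 17.2, 17.2, 8.7 and 18.9 after testosterone. As for Cd3d, the 14-day arrays lay above all 3-day and all testosterone arrays, while sham arrays spread over the whole range. Cd3g was 2.48-fold higher at 14 days than at 3 days (log2 change 1.31 ± 0.31 SE, limma adjusted p = 0.00465). It was 2.34-fold lower after testosterone than at 14 days (log2 change -1.23 ± 0.31 SE, limma adjusted p = 0.00545). Both calls were kept in all 20 fits that left out 1 array. Castrated 14-day replicates 4 and 5, the highest for Cd3g, are among the 4 arrays with a high Gapdh ratio, and without those 4 arrays neither call remained (1.02, limma adjusted p = 0.0695, and -0.96, limma adjusted p = 0.122). The 14-day change over sham was 0.62 ± 0.31 SE (limma adjusted p = 0.115).

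Cd3e (102971_at) moved otherwise. It read 47.7, 68.2, 51.8, 36.6 and 64.1 in sham, 36.4, 39.7, 39.8, 50.9 and 43.8 at 3 days, 34.0, 27.4, 37.8, 51.3 and 28.9 at 14 days, and 33.3, 30.8, 31.4, 27.4 and 23.1 after testosterone. The testosterone arrays were below all sham arrays, and the means were 29.2 ± 4.02 and 53.7 ± 12.8 (SD, n = 5 each). Cd3e was 1.57-fold lower after testosterone than in sham (log2 change -0.65 ± 0.14 SE, limma adjusted p = 0.00172), and 1.37-fold lower at 14 days than in sham (log2 change -0.45 ± 0.14 SE, limma adjusted p = 0.0185, kept in 17 of 20 fits that left out 1 array). Both calls were lost with quantile normalization (-0.28, limma adjusted p = 0.0784, and -0.23, limma adjusted p = 0.135). Over the 20 arrays r in level was 0.57 between Cd3d and Cd3g, 0.09 between Cd3d and Cd3e, and 0.10 between Cd3e and Cd3g, and in deviations 0.20, 0.00 and 0.07.

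**Figure D4:**
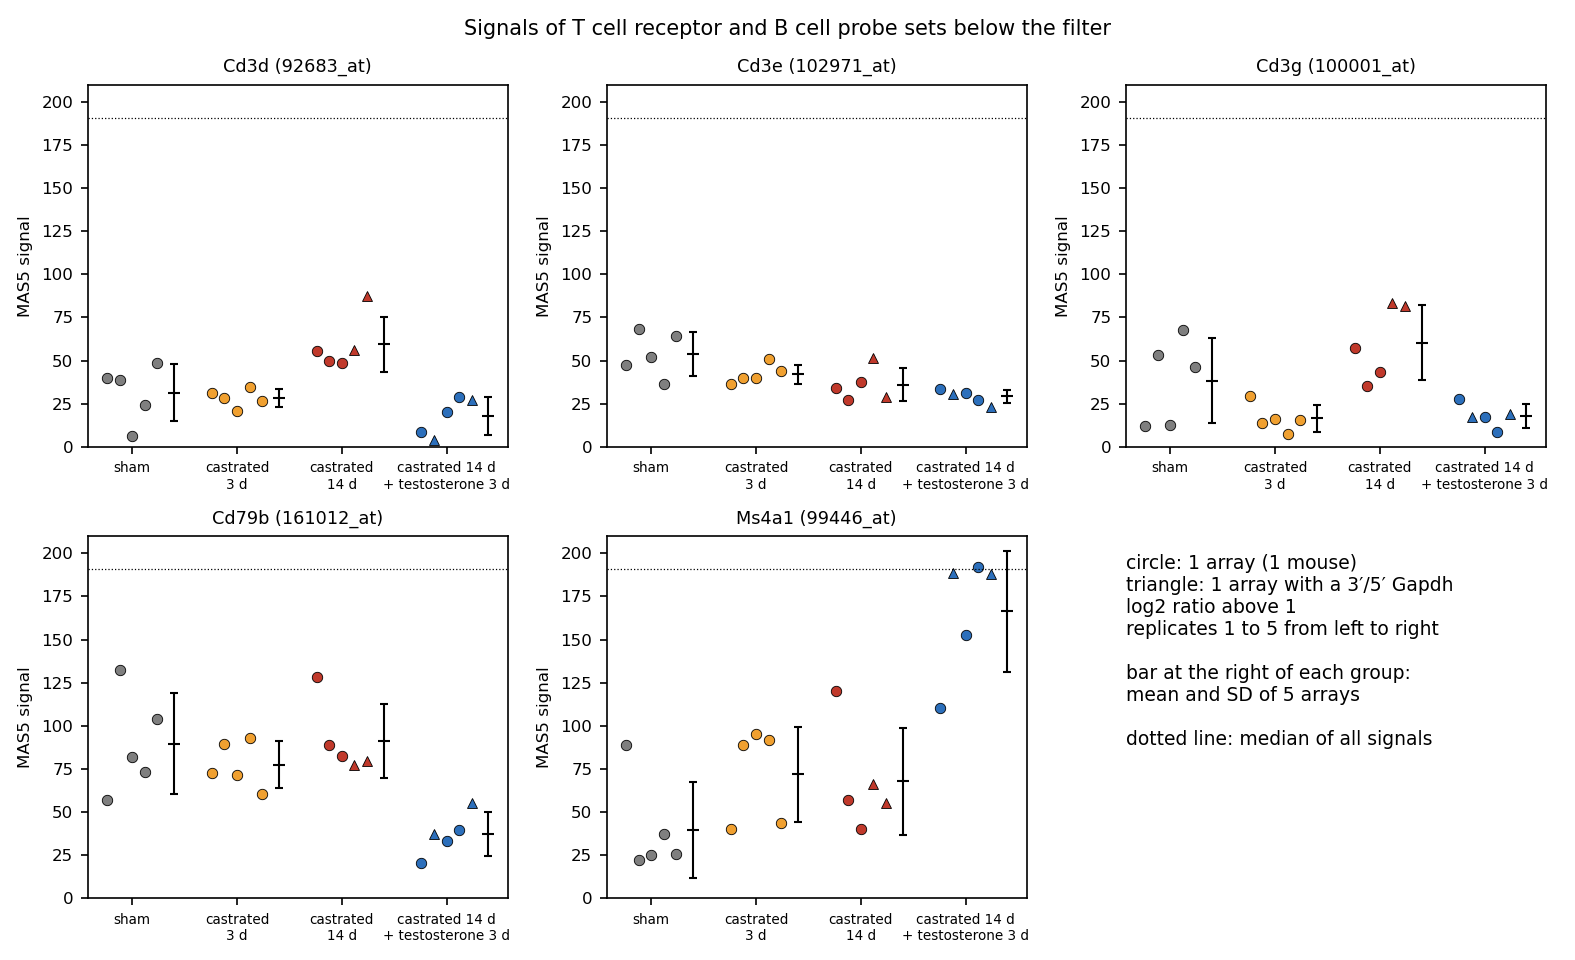
MAS5 signals (arbitrary units, linear axes) of 5 probe sets of the CD3 genes, Cd79b and Ms4a1 that did not pass the filter, 1 point per mouse in groups of 5, with mean and SD, and triangles for arrays with a high Gapdh 3′/5′ ratio. Nearly all points lie under the dotted line at the median signal of 190.8, and only Ms4a1 99446_at, in testosterone mice, reaches it.

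Sums per array follow the brightest probe set of each list, so the B cell sum depended on whether Ighm was in it. With Ighm, Cd79a, Cd79b and Ms4a1 it was 1546 to 5686 at 14 days (median 2210), above the 855.9 to 1088 in sham (median 919.6). Without Ighm it went the other way. The sum of Cd79a, Cd79b and Ms4a1, 1 probe set each, was 441.8 to 647.2 in sham (median 589.2), 480.4 to 615.7 at 3 days (565.2), 328.2 to 435.2 at 14 days (363.1) and 314.8 to 558.6 after testosterone (368.6). The 14-day arrays were below all sham arrays in this sum, although neither Cd79a nor Cd79b alone was called there. Its largest part was Ms4a1 104173_at, with a mean of 183 at 14 days and 315 in sham. The other Ms4a1 probe set, 99446_at, was not in the sum and averaged 67.8 at 14 days and 39.7 in sham. The sum of Cd3d, Cd3e and Cd3g was 70.7 to 160.2 in sham (median 128.2), 76.7 to 97.1 at 3 days (85.6), 112.4 to 198.3 at 14 days (146.7) and 52 to 69.5 after testosterone (68.5). At 14 days it overlapped sham but lay above all 3-day and testosterone arrays. Its highest values there, 190.4 and 198.3, came from replicates 4 and 5, which had a high Gapdh ratio. The other arrays at 14 days gave 112.4 to 146.7. Castrated 14-day replicate 1, which had the highest Ighm, had the second highest B cell sum without Ighm of its group, at 413.3. Its T cell sum was 146.7, the median of its group.

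**Figure D5:**
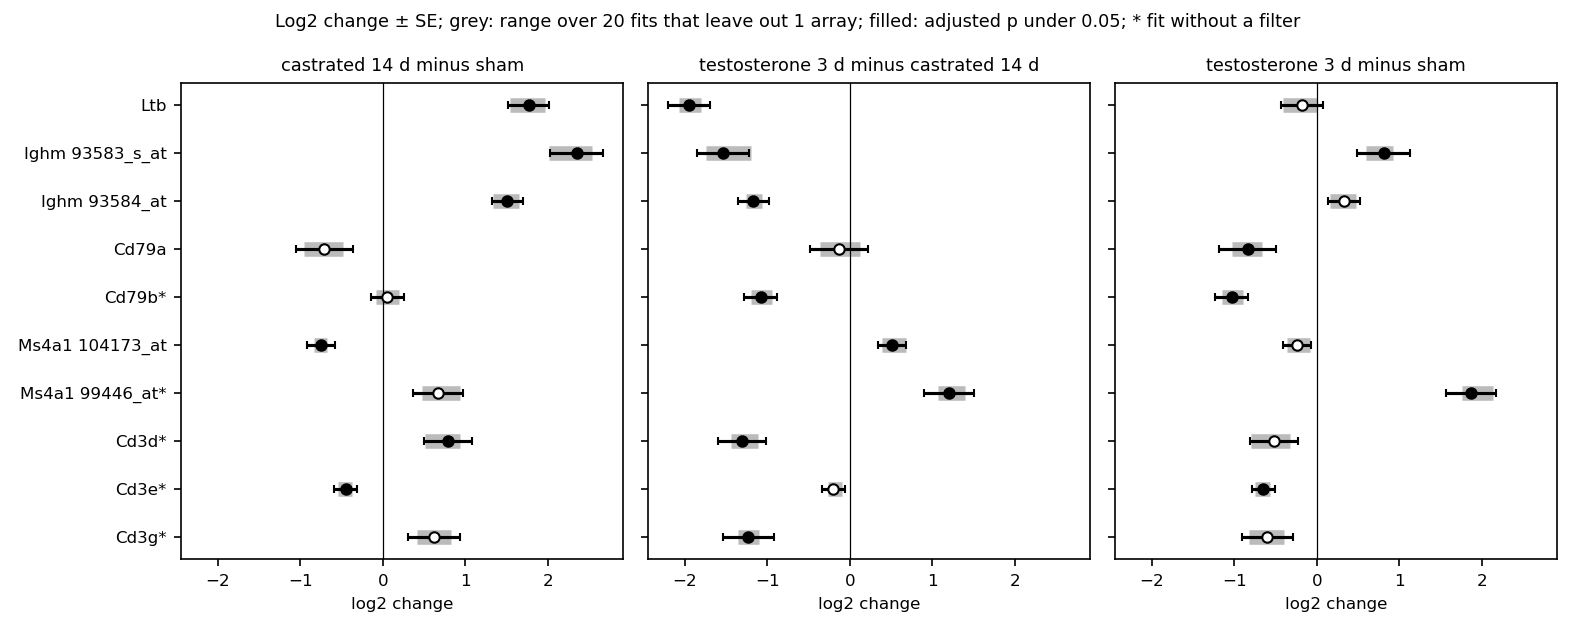
Log2 change with its SE (black) and the range over 20 fits that each left out 1 array (grey) for 10 lymphocyte probe sets in 3 comparisons, with filled points where the limma adjusted p was under 0.05, and an asterisk for fits without a filter. At 14 days against sham, Ltb and both Ighm probe sets lie right of 0 and Ms4a1 104173_at lies left of it, and after testosterone against 14 days the same 4 lie on the other side.

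The counts per comparison stand beside those of all probe sets, and since Ltb and Ighm 93584_at passed the filter only through their 14-day arrays they are given as a description. At 3 days against sham 0 of the 5 tested lymphocyte probe sets were called by limma (2 at an unadjusted p under 0.05), against 9.84% of all 6913 probe sets higher and 4.46% lower. Without a filter 0 of 25 were called (6 at an unadjusted p under 0.05), against 4.78% of all 12422 higher and 3.79% lower. At 14 days against sham 3 of 5 were higher and 1 lower, where 28.6% of all tested were higher and 24.3% lower. Without a filter 5 of 25 were higher and 3 lower, against 18.7% and 21.7% of all. At 14 days against 3 days 3 of 5 were higher and 2 lower, against 20.2% and 20.4%, and without a filter 5 of 25 higher and 1 lower, against 12.8% and 11.8%. After testosterone against 14 days 1 of 5 was higher and 3 lower, against 18.2% and 26.6%, and without a filter 2 of 25 higher and 7 lower, against 10.4% and 17.5%. After testosterone against sham 1 of 5 was higher and 1 lower, against 23.5% and 29.5%, and without a filter 1 of 25 higher and 4 lower, against 14.2% and 26.7%. The split of all tested probe sets after testosterone depended on scaling, since centring each array on its median shifted the median change by 0.19 against 14 days, where 64.1% of calls were then higher in place of 40.6%, and by 0.17 against sham, where 62.7% were higher in place of 44.3%.

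Other lymphocyte genes were mostly dim as well. Of 23 further T cell genes on the array 7 passed the filter, and at 14 days against sham 2 rose and 3 fell, at a median log2 change of -0.41 against 0.01 over all probe sets. Of all 6913 probe sets 28.6% rose and 24.3% fell, so with 7 genes the share that rose is that of all probe sets. Thy1, a surface glycoprotein of mouse T cells that fibroblasts and nerve cells also carry, was among those that rose, at 1129 ± 418 at 14 days and 214 ± 17.9 in sham (log2 change 2.27 ± 0.28 SE, limma adjusted p = 1.59e-06). Cd7, a surface protein of T and natural killer cells, rose to 346 ± 49.9 at 14 days against 142 ± 49.6 in sham (log2 change 1.27 ± 0.20 SE, limma adjusted p = 3.23e-05). Satb1, a chromatin organiser known from thymocytes, fell to 884 ± 130 at 14 days against 2108 ± 521 in sham (log2 change -1.22 ± 0.16 SE, limma adjusted p = 3.9e-06). Of 26 further B cell genes 8 passed, with 3 higher and 0 lower at 14 days against sham (median 0.31), a share of higher genes close to that of all probe sets. Cd74, the invariant chain of MHC class II in B cells, macrophages and dendritic cells, was the most changed of them, at 8474 ± 1705 at 14 days and 1788 ± 229 in sham (log2 change 2.22 ± 0.17 SE, limma adjusted p = 4.08e-09). Of 7 plasma cell genes 3 passed and 2 of those rose at 14 days, Jchain and Sdc1, a heparan sulphate proteoglycan of plasma cells and epithelium (1.07 ± 0.21 SE, limma adjusted p = 0.000291). After testosterone Jchain fell to 162 ± 48.7 against 575 ± 397 at 14 days (log2 change -1.55 ± 0.34 SE, limma adjusted p = 0.00114).

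Genes of lymphoid tissue and homing moved in both directions at 14 days against sham, with 4 of 9 tested higher and 1 lower (median 0.17), against 28.6% and 24.3% of all probe sets. Ccl5, a chemokine for T cells and monocytes, averaged 400 ± 54.6 at 14 days and 35.6 ± 13.6 in sham (log2 change 3.14 ± 0.32 SE, limma adjusted p = 1.82e-07). Ccr2, a chemokine receptor of monocytes, averaged 521 ± 142 at 14 days and 99.9 ± 42.4 in sham (log2 change 2.28 ± 0.23 SE, limma adjusted p = 1.85e-07). Traf1, a signalling adaptor of the tumour necrosis factor receptor family, fell to 37.7 ± 23.7 at 14 days against 339 ± 42.6 in sham (log2 change -2.89 ± 0.20 SE, limma adjusted p = 1.35e-09). After testosterone against 14 days 4 of the 9 were lower and 1 higher, against 26.6% and 18.2% of all probe sets. Relb, the NF-kappa-B subunit that acts downstream of the lymphotoxin beta receptor, was lower there, as Ltb was, at 179 ± 57.7 against 462 ± 54.2 at 14 days (log2 change -1.35 ± 0.22 SE, limma adjusted p = 4.97e-05). At 14 days against sham Relb was higher (0.85 ± 0.22 SE, limma adjusted p = 0.00304). Nfkb2, on the same list, was not called there (0.02 ± 0.19 SE, limma adjusted p = 0.951). Ltbr, the receptor itself, was not called at 14 days against sham (-0.02 ± 0.11 SE, limma adjusted p = 0.884). It was lower after testosterone than in sham (-0.37 ± 0.11 SE, limma adjusted p = 0.00941), a call lost when arrays were centred on their medians, with only the compared groups, and with the 4 high-Gapdh-ratio arrays left out. Of 14 natural killer and cytotoxic genes only Gzmb, granzyme B, passed the filter, and it was higher at 14 days than in sham (1.25 ± 0.37 SE, limma adjusted p = 0.00778).

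Markers of other cells moved with the 14-day group too. Of 14 tested macrophage genes 13 rose and 0 fell at 14 days against sham, at a median log2 change of 2.01. Of all 6913 probe sets 28.6% rose and 24.3% fell, at a median of 0.01. The summed signal of all 19 macrophage genes on the array was 18026 to 27520 at 14 days and 4398 to 5841 in sham. After testosterone 13 of the 14 fell against 14 days (median -1.08), where 26.6% of all probe sets fell (median -0.10), and the macrophage sum was 8096 to 10960. The 4 erythroid and blood genes summed to 3624 to 5632 at 14 days and 1726 to 2463 in sham. Of 10 tested epithelial genes 5 rose and 1 fell at 14 days against sham (median 0.46), beside the 28.6% and 24.3% of all probe sets. Krt8, a keratin of luminal cells, rose (log2 change 0.96 ± 0.14 SE, limma adjusted p = 8.5e-06), and Pbsn, the androgen-dependent secretory protein probasin, fell (log2 change -1.80 ± 0.12 SE, limma adjusted p = 4.67e-10). The sum of all 13 epithelial genes on the array hides these opposite changes, at 37368 to 53333 at 14 days and 38326 to 49222 in sham. No gene of these 3 lists was at 0 on any array. The part of these cells and of blood in the changes of Ltb and Ighm was not tested.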

How the data were processed

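RNA of 20 whole prostates, extracted with an RNeasy kit per the labels' protocols, was read on 1 array each. The deposited values are intensities, 1 linear MAS5 signal per probe set, computed with MAS5 version 5.0 per the submitters' processing notes. Scanner settings are not given in the sources used here. Samples were grouped by their source labels, which name no batch or pair.

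Symbols came from the array's annotation, and the Entrez IDs of all 25 member probe sets carry the same symbols in RefSeq (GRCm38.p6). After leaving out 66 control probe sets, log2 (signal + 12.7) was fitted in R 4.3.3 for all 4 groups in 1 model with 5 comparisons, tested two-sided by eBayes of limma 3.58.1. The filter kept 6913 of 12422 probe sets (55.7%). The fit was tested on simulated data. No 2 arrays correlated above 0.9817. The number of arrays limits the precision, and the p-values set each group difference against the spread between mice within groups.

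All member probe sets are named. Of the other lists, up to 3 called genes with the largest change per comparison could be named, by the probe set with the highest mean, and a selection of them is given. Likeness is the highest Pearson's r over 20 arrays, the first 3 genes, without p. Members and lists were chosen with earlier results of these data known. Alternatives were a pseudocount of 1 or 43.2 (25th percentile), no filter, a filter on the mean, median centring, quantile normalization, only the compared groups, array weights from limma, leaving out the 4 arrays of high Gapdh ratio, and leaving out each array. For probe sets below the filter, pseudocounts, scalings and left-out arrays were run without a filter, an addition made after seeing the data.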

Additional observations from a re-analysis of the deposited data

Results flagged for a closer look

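A value far from the other 4 of its group was found in 13 of 100 groups of 5 arrays on the log2 scale, where chance gives about 1 in 20 groups. All 13 were high values in probe sets below the filter. On the linear signals there were 19, of which 1 was in a probe set that passed the filter, Ighm 93583_s_at on castrated 14-day replicate 1 at 5272.9 (gap over range 0.74). For Ighm, castrated 3-day replicate 5 had 37.8 for 101745_f_at (others 8.9 to 14.5), 23.4 for 99885_at (2.9 to 5.8) and 25.1 for 101276_at (6.0 to 10.1), and replicate 2 had 34.9 for 102159_at (9.0 to 14.3). Castrated 14-day replicate 5 had 135.4 for Ighm 97568_at (24.0 to 28.2) and 87.5 for Cd3d 92683_at (48.3 to 56.0), and replicate 1 had 128.5 for Cd79b (77.1 to 88.8). Testosterone replicate 1 had 93.9 for Ighm 99420_at (24.6 to 37.2), replicate 4 had 46.1 for Ighm 100377_f_at (10.3 to 17.1), and replicate 2 had 10.8 for Cd3d 161863_r_at (0.3 to 2.0). Sham replicate 2 had 59.2 for Ighm 100362_f_at (36.9 to 41.4) and 98.5 for Ighm 96966_at (12.4 to 20.1), and sham replicate 1 had 10.0 for Cd3d 161863_r_at (0.5 to 2.7).

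In the change at 14 days minus that at 3 days sham cancels out, so this is the comparison of 14 with 3 days given above. Limma called 7 probe sets, 5 in the filtered fit, and Cd3d and Cd3g in the fit without a filter. Of all probe sets 20.2% were higher and 20.4% lower with the filter, and 12.8% and 11.8% without it. Ltb and Ighm 93584_at passed the filter only through their 14-day arrays. The effect of castration was more positive at 14 days for Ltb by 1.18 (limma adjusted p = 0.00128), for Ighm 93583_s_at by 1.55 (limma adjusted p = 0.000912), for Ighm 93584_at by 1.18 (limma adjusted p = 7.9e-05), for Cd3d by 0.80 (limma adjusted p = 0.049) and for Cd3g by 1.31 (limma adjusted p = 0.00465). The difference was -0.92 for Cd79a (limma adjusted p = 0.0396, or 0.0624 without a filter) and -0.63 for Ms4a1 104173_at (limma adjusted p = 0.00571). As given above, the calls of Cd3d and Cd3g were lost in some of the other fits.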

How the results depend on the processing

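Over all alternatives 2999 of 3210 member values kept their side of the threshold, 147 lost a call and 64 gained one. A change of sign where neither fit gave a call is among the 2999. Ltb after testosterone against sham, for example, went from -0.18 to 0.13 with quantile normalization. Called lymphocyte probe sets at 3 days against sham numbered 0, but 1 with only the compared groups and 1 with array weights, and 0 to 1 with 1 array left out. At 14 days against sham they numbered 4, with 8 without a filter, 2 with the filter on the mean and 4 to 5 with 1 array left out. At 14 days against 3 days there were 5, with 2 under the filter on the mean and 4 to 5 with 1 array left out. After testosterone against 14 days there were 4, with 9 without a filter, 2 under the filter on the mean and 3 to 4 with 1 array left out. After testosterone against sham there were 2, with 5 without a filter, 1 each at a pseudocount of 1, under the filter on the mean and with array weights, and 0 to 2 with 1 array left out. The filters changed how many probe sets were tested, 25 without one and 2 under that on the mean. The cause of the other changes was not tested.

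Taking another Ighm probe set in place of 93583_s_at turned the sign with a call for 99885_at at 14 days against sham (-0.81) and for 100377_f_at (-1.09) and 101870_at (-0.79) after testosterone against sham. All of these were near the bottom of the scale, with sham means of 28.2, 54 and 29. For 101870_at sham replicates 2 and 5, at 45.6 and 73.1, carried the sham mean. The calls were kept in only a part of the fits that left out 1 array, as given above. Over all probe sets, dropping the filter gave 594 higher and 471 lower calls at 3 days against sham in place of 680 and 308, 2319 and 2690 at 14 days against sham in place of 1980 and 1679, and 1763 and 3317 after testosterone against sham in place of 1624 and 2041. Median centring gave 1827 and 1024 after testosterone against 14 days in place of 1259 and 1840, and 2026 and 1206 against sham in place of 1624 and 2041. No paired analysis was possible because the labels number no replicates. Most member signals lay under the median of all signals, which limits what their changes can show.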
